A study of Homo sapiens with 12 samples.

Results

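The effect of arginine (Arg) that was shared by both treatment times was examined in gingival keratinocytes, with every gene of the deposited count table as a candidate. The members were all 12 libraries of the series. The 6 Arg libraries were compared with the 6 control libraries in an additive model, in which time (24 or 48 h) was a covariate. A gene was called when its adjusted p over all tested genes was under 0.05 and its fold change had the same sign at 24 h and at 48 h. Of 58735 genes in the table, 29789 had a count in any library and 15148 passed the filter on low counts and were tested. In all, 1630 genes were called.

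TIGK cells are keratinocytes of the human gum that divide without limit because they carry telomerase (hTERT). All 12 libraries came from this 1 line, kept at 48 mM glucose in DMEM-SILAC Flex, a base medium made without Arg, to which pituitary extract, L-lysine, insulin, TGF-α, hydrocortisone hemisuccinate, epinephrine, L-glutamine, and apo-transferrin were added. Control cells (Con24h and Con48h) received no Arg, and treated cells (Arg24h and Arg48h) received 500 μM Arg for the same times, with 3 libraries (A, B, and C) in each of the 4 groups. Poly(A) RNA was sequenced from cells grown in wells of culture plates. Before RNA extraction, the cells were detached with TrypLE, washed in cold PBS, and centrifuged. The part of these steps in the results was not tested. Nothing states that the replicates were separate cultures beyond separate wells, so the p-values measure the spread between these libraries.

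Arg is used for protein synthesis and is also the substrate of arginase, which makes ornithine for polyamines and proline, and of nitric oxide synthases. Cationic amino acid transporters carry it into the cell. In keratinocytes, growth is driven by ligands of the EGF receptor, which act through MAP kinases to induce immediate early genes such as FOS, and the dual-specificity phosphatases (DUSPs) and Sprouty proteins induced by the same pathway limit it in return. The aryl hydrocarbon receptor (AhR) induces CYP1A1 and CYP1B1, SKP2 marks the cell cycle inhibitor p27 for degradation, and SRSF5 is a splicing factor of the serine/arginine-rich family.

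The libraries held between 16542243 and 19040964 counts. Values per library are given as CPM, the counts scaled to a common library size after TMM normalization, and fold changes are log2 values of Arg minus control, so that a positive value is higher with Arg. The keratinocyte marker KRT5 lay between 24118 and 31695 CPM. TYR and CD1A were at 0 in all libraries, and COL1A2, SOX10, and CDH5 were at 0 in at least 10 of the 12, although COL1A1 (10.8 to 27.0 CPM) and DCN (15.3 to 76.1 CPM) were present. The summed level of the 8 fibroblast markers lay between 37.9 and 57.7 CPM in Con24h, 32.9 and 44.7 in Arg24h, 88.2 and 104 in Con48h, and 75.4 and 102 in Arg48h, and the arms overlapped at both times. The summed level of the melanocyte markers was 21.7 to 25.9 CPM in Con24h, 16.2 to 18.99 in Arg24h, 23.0 to 30.6 in Con48h, and 21.5 to 25.6 in Arg48h, so the arms were apart at 24 h. For the leukocyte markers it was 2.32 to 3.56, 1.56 to 2.33, 1.66 to 3.88, and 1.04 to 1.84 CPM in the same order. Among these markers, MITF (−0.37, adjusted p = 0.0155) and CD14 (−0.97, adjusted p = 0.0151) were called lower. The part of these cell types in the results was not tested.

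Arg treatment was followed by higher expression of 716 genes (4.73% of the genes tested) and lower expression of 914 genes (6.03%). At an unadjusted p under 0.05, 1948 genes were higher and 2053 were lower. No gene with an adjusted p under 0.05 differed in sign between the times, and at the unadjusted threshold 35 genes did. The additive fit averages over both times, so genes with opposite signs seldom pass it, and these counts do not show a shared effect. Over all tested genes, 66.8% had the same sign at both times. The changes were mostly small. The median log2 fold change of the called genes was 0.31 for those that rose and −0.36 for those that fell, 27 rose and 87 fell by at least 1 on the log2 scale, and the largest absolute values were 2.12 and 3.68.

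With all 12 libraries, the times did not contribute alike. In a model with the 4 groups as levels, 468 genes rose (3.09%) and 532 fell (3.51%) at 24 h, whereas 4 rose (0.0264%) and 37 fell (0.244%) at 48 h. The 48 h values include Con48h B, a control library described below that lay between the arms. Without Con48h B, 753 genes rose and 891 fell at 24 h, and 509 rose and 657 fell at 48 h. Of the genes called over both times, 375 that rose and 484 that fell were called at neither time alone. The median of the called genes that rose was 0.37 at 24 h and 0.26 at 48 h, and that of the genes that fell was −0.39 and −0.30. The absolute change was smaller at 48 h in 78.1% of the genes that rose and 64.0% of those that fell, beside 58.9% of all tested genes. A difference between the times (the interaction) passed an adjusted p of 0.05 in 2 genes (0.0132%) and an unadjusted p of 0.05 in 1040 genes. At the unadjusted threshold it was met by 14.8% of the called genes that rose and 10.4% of those that fell, beside 6.87% of all tested genes. Complete separation of the 3 Arg libraries from the 3 control libraries at both times was found in 339 genes higher with Arg (2.24%) and 396 genes lower (2.61%). Of these, 251 and 316 were called, which is 35.1% and 34.6% of the called genes.

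**Figure D1:**
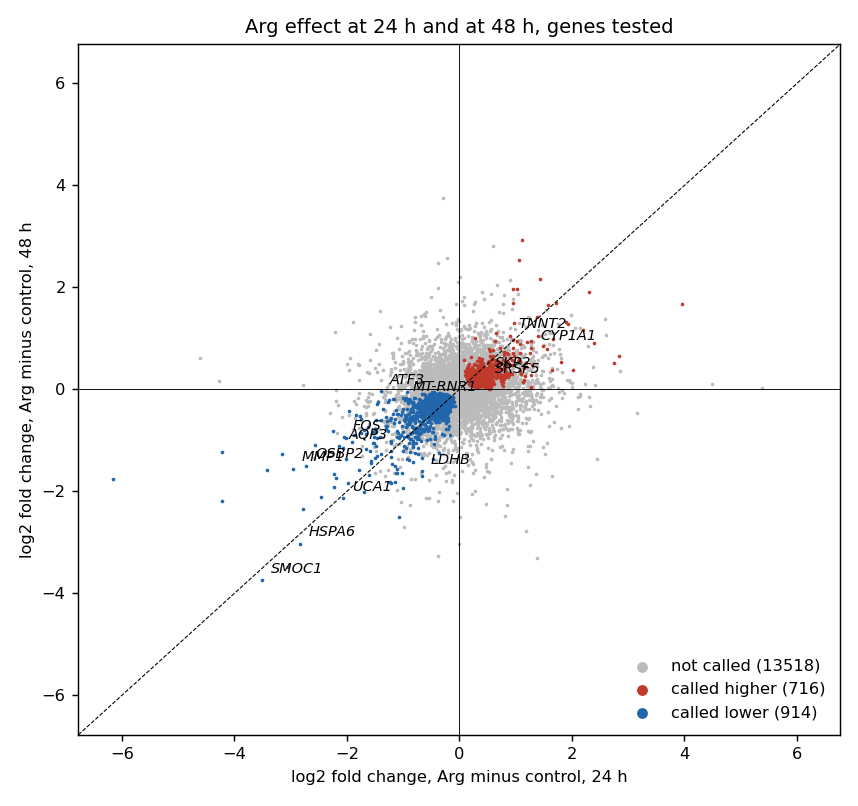
Log2 fold change (Arg minus control) of each of the 15148 tested genes at 24 h (horizontal axis) and at 48 h (vertical axis), with 716 genes called higher in red, 914 called lower in blue, 13518 not called in gray, and equal change on the dashed line. Called genes lie at the lower left and upper right because the rule asks for the same sign, and most of them lie nearer to 0 at 48 h than at 24 h. The 48 h values include Con48h B, a control library that lay between the arms.

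The plot of the changes at both times shows this for single genes. CYP1A1, FOS, AQP3, and OSBP2 lie closer to 0 at 48 h, SMOC1, HSPA6, and UCA1 lie near the line of equal change, and LDHB lies farther from 0 at 48 h. Because a gene can be called mainly through 1 time, the calls of each time were also looked up in the libraries of the other time, with separate fits of 6 libraries each that share no library. In the fit of the 24 h libraries, 395 genes rose and 538 fell among the 13996 genes tested at both times. At 48 h, 357 of the 395 (90.4%) were higher and 490 of the 538 (91.1%) were lower, beside 50% of all genes in either direction. At an unadjusted p under 0.05 in the same direction, 119 (30.1%) and 251 (46.7%) passed at 48 h, beside 6% and 7.66% of all genes. In the other order, all 17 genes that fell in the fit of the 48 h libraries were lower at 24 h, and 0 genes rose in that fit.

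One control library stood apart the most. In Con48h B, genes called over both times lay between the arms. The median level of the genes that rose, relative to the mean of the 6 libraries of that time, was 0.01 in Con48h B on the log2 scale, beside −0.18 and −0.19 in Con48h A and C and 0.09 to 0.15 in the Arg48h libraries. For the genes that fell it was −0.03 in Con48h B, 0.24 in both A and C, and −0.12 to −0.17 in Arg48h. Counted gene by gene, Con48h B was nearer to the Arg48h mean than to the mean of Con48h A and C in 434 of the genes that rose (60.6%) and 569 of those that fell (62.3%). Over all tested genes this share was 63.4%, so the place of Con48h B was not particular to the called genes. In the other 11 libraries, between 3.77% and 31.7% of the called genes were nearer to the other arm, beside 36.4% to 48.6% of all tested genes. The called genes were selected on these same libraries, so lower shares among them were built in. Con24h B, Arg24h A, and Arg48h A were the next, with 21.8%, 25.0%, and 27.9% of the genes that rose and 31.7%, 21.1%, and 16.4% of those that fell. At 24 h, the B control also lay nearest to the Arg arm. Its median was −0.13 for the genes that rose, beside −0.21 and −0.20 in Con24h A and C. For the genes that fell it was 0.11, beside 0.24 and 0.25. The mitochondrial genome gave 1.55% of all counts in Con48h B, beside 0.707% to 1.31% in the other 48 h libraries. Without Con48h B, 1644 genes were called at 24 h and 1166 at 48 h. Over both times, 1359 genes rose and 1503 fell without it, and 712 and 905 of the 716 and 914 genes were among those called. The calls without Con48h B were 8.76% (higher) and 9.69% (lower) of the 15508 genes then tested, so the counts of list members given without this library stand against a higher background. Which property of this library set its place was not tested.

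**Figure D2:**
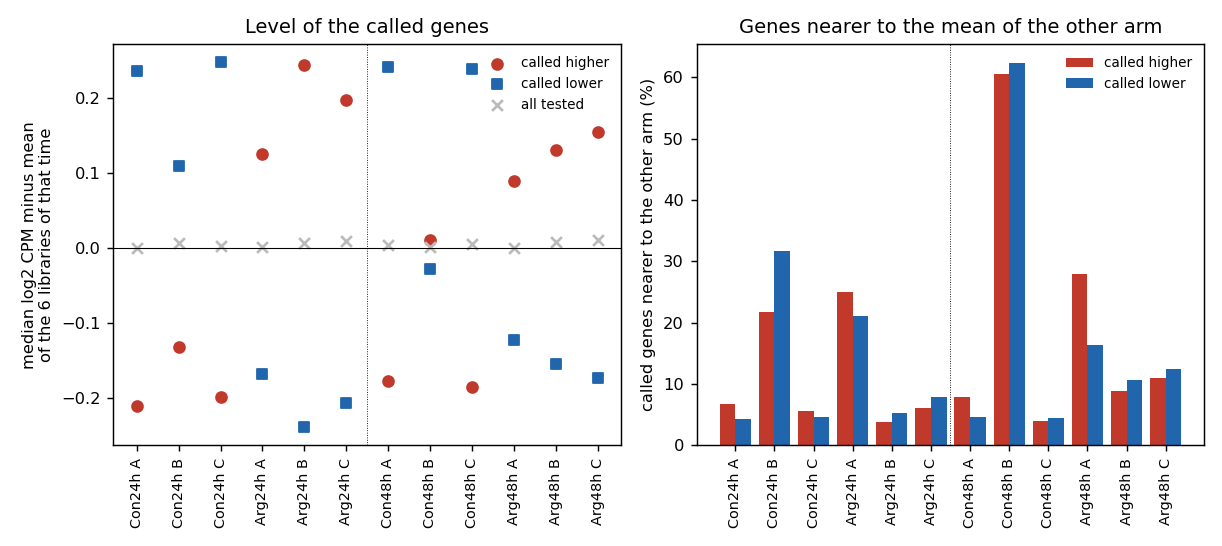
Left, the median log2 CPM of the called genes in each library minus the mean of the 6 libraries of that time (red circles, called higher; blue squares, called lower; gray crosses, all tested genes). Right, the percentage of called genes for which a library was nearer to the mean of the other arm than to that of its own arm's other libraries; Con48h B is the only library above 60%, and the other 11 lie at 31.7% or lower.

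As the plot of library positions shows, the medians of the other 11 libraries lay on the side of their own arm. The selection of the called genes on these libraries favors such positions.

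CYP1A1, an AhR-induced enzyme that oxidizes aromatic compounds, was the called gene with the smallest p among those that rose and had rank 4 among all genes. CYP1A1 (ENSG00000140465, chromosome 15 of GRCh38, 74719542 to 74725610, minus strand) had 19.99, 15.6, and 15.8 CPM in Con24h A, B, and C and 36.6, 41.3, and 46.9 CPM in Arg24h. At 48 h it had 20.7, 20.3, and 19.7 CPM in the control and 40.8, 39.7, and 26.6 CPM with Arg. The arms did not overlap at either time, and Arg48h C was the lowest of the Arg libraries. The log2 fold change was 1.05 over both times (standard error 0.11, adjusted p = 1.57e-05 in edgeR's test), 1.28 at 24 h, and 0.82 at 48 h. The study chose CYP1A1, SKP2, and SRSF5 from these same libraries, so their values here are a description and not independent support.

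CYP1B1, the other AhR-induced enzyme of this family, moved in the same direction. It had 50, 60.8, and 60.3 CPM in Con24h and 101, 99.3, and 113 CPM in Arg24h, followed by 97.7, 152, and 93.5 CPM in Con48h and 181, 177, and 140 CPM in Arg48h. Con48h B was above Arg48h C, so the arms overlapped at 48 h. CYP1B1 rose by 0.70 (standard error 0.10, adjusted p = 0.00043), and by 0.84 without Con48h B. CYP1B1 (24050 counts) overlaps RMDN2 (1170 counts) on the opposite strand. Of the 12 tested genes of the AhR list, 3 rose (25%) and 1 fell (8.33%), beside 4.73% and 6.03% of all tested genes. The list median was 0.18, beside 0.0067 for all tested genes. NQO1, a quinone reductase, rose by 0.36 (adjusted p = 0.00113). TIPARP, which limits AhR activity, fell by 0.28 on the log2 scale (adjusted p = 0.0492), the direction opposite to CYP1A1 and CYP1B1. AHR itself (0.05, adjusted p = 0.762) and ARNT, its partner (0.10, adjusted p = 0.45), did not pass the test, nor did CYP1A2, at a mean of 0.459 CPM.

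**Figure D3:**
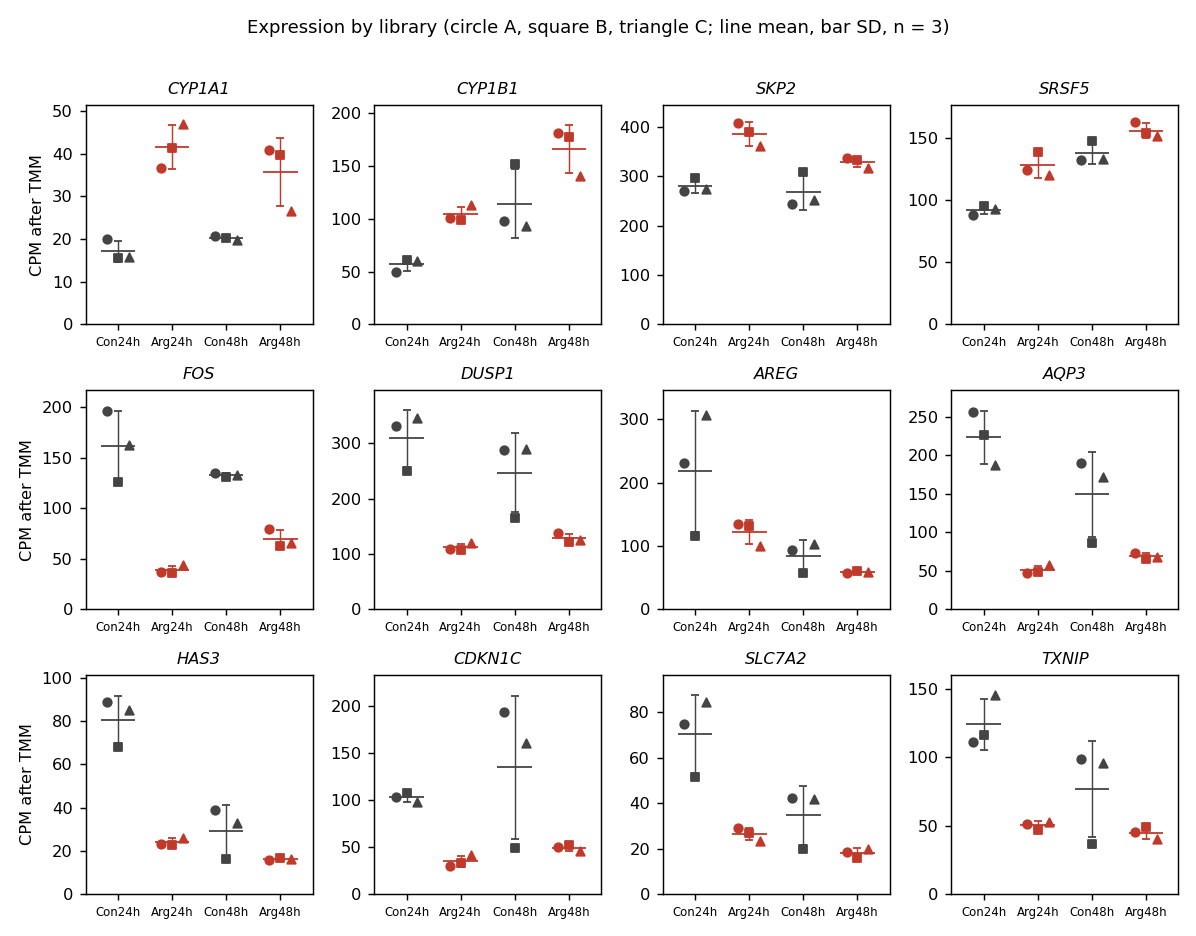
CPM after TMM normalization of 12 genes in each library (circle, replicate A; square, B; triangle, C; line, mean; bar, SD, n = 3), with control in black and Arg in red. The Arg libraries of FOS, DUSP1, and AQP3 lie below all controls at both times, and the square of Con48h B lies at or near the Arg48h level in CDKN1C, HAS3, SLC7A2, AREG, and TXNIP.

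Cell cycle genes were described from SKP2, the CDK inhibitors, and lists of phase genes. SKP2 (ENSG00000145604, chromosome 5, 36151989 to 36184319) had 270, 297, and 274 CPM in Con24h and 409, 389, and 361 CPM in Arg24h. At 48 h it had 244, 310, and 252 CPM in the control and 337, 333, and 318 CPM with Arg. Every Arg library was above every control library of its time, by a small margin over Con48h B. SKP2 rose by 0.38 (standard error 0.060, adjusted p = 0.000786). CDKN1C, which encodes the cyclin-dependent kinase inhibitor p57, fell the most of the 7 inhibitors of its list. It had 103, 108, and 98.5 CPM in Con24h against 29.7, 33.0, and 41.8 CPM in Arg24h, and 194, 49.2, and 161 CPM in Con48h against 50.7, 51.9, and 45.5 CPM in Arg48h. Con48h B lay among the Arg libraries. CDKN1C changed by −1.51 on the log2 scale (standard error 0.19, adjusted p = 0.000145) with all libraries and −1.70 without Con48h B. CDKN1B, which encodes p27, rose by 0.21 (adjusted p = 0.0496) and CDKN2C by 0.35 (adjusted p = 0.0454), while CDKN1A, the p21 gene, had a log2 fold change of −0.01 (adjusted p = 0.93).

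Of the 54 G2/M phase genes, 18 rose (33.3%) and 0 fell, whereas of the 42 tested S phase genes 2 rose (4.76%) and 1 fell (2.38%). The G2/M median was 0.27 at 24 h and 0.02 at 48 h, and that of the S phase genes was 0.07 and −0.04. The calls share a sign at both times by the rule. These medians cover all members of each list, called or not. Of the 54 G2/M genes, 40 had the same sign at both times, beside 66.8% of all tested genes. In RNA from whole wells, fewer cells of a kind and less RNA per cell cannot be told apart. HMGB2, a chromatin protein that is high in dividing cells, had 198, 185, and 188 CPM in Con24h and 284, 303, and 282 CPM in Arg24h, but 206, 246, and 219 CPM in Con48h against 242, 241, and 238 CPM in Arg48h. Con48h B was the highest of the 48 h libraries. Its log2 fold change was 0.36 over both times (adjusted p = 0.00511), 0.61 at 24 h, and 0.10 at 48 h. The kinetochore protein CENPF rose by 0.37 (adjusted p = 0.00824), the proliferation marker MKI67 by 0.36 (adjusted p = 0.0179), the cytokinesis motor KIF23 by 0.26 (adjusted p = 0.00843), and DNA topoisomerase TOP2A by 0.21 (adjusted p = 0.0193). CDK1, the mitotic kinase, did not pass (−0.09, adjusted p = 0.291). Of 38 tested kinesins, which move along microtubules, 7 rose (18.4%) and 2 fell (5.26%). Among them were KIF22 (0.37, adjusted p = 0.00451), KIFC1 (0.30, adjusted p = 0.00839), and the lowered KIFC3 (−0.37, adjusted p = 0.0155). Of 21 centromere proteins, 3 rose (14.3%) and 1 fell (4.76%), with a median of 0.14 at 24 h and −0.04 at 48 h. Beside these shares, 4.73% of all tested genes rose and 6.03% fell. Without Con48h B, 20 G2/M genes rose and 2 fell.

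Among the hnRNP and SR splicing factors, 8 rose and 0 fell, and most did not pass the test. SRSF5 (ENSG00000100650, chromosome 14, 69726900 to 69772005) had 88.4, 95.2, and 92.9 CPM in Con24h and 125, 139, and 120 CPM in Arg24h. At 48 h it had 132, 148, and 134 CPM in the control and 163, 154, and 152 CPM with Arg. The arms did not overlap at either time, and the control at 48 h was above 2 of the 3 Arg libraries of 24 h. SRSF5 rose by 0.33 (standard error 0.062, adjusted p = 0.00276), with 0.47 at 24 h and 0.18 at 48 h. Among the 23 tested hnRNP genes, whose products bind nascent RNA, 6 rose (26.1%) and 0 fell (median 0.15), beside 4.73% and 6.03% of all tested genes. Without Con48h B, 10 hnRNP genes rose, where 8.76% of all genes did. HNRNPH1, a splicing regulator that binds guanine-rich RNA, had 303, 290, and 304 CPM in Con24h against 379, 446, and 450 CPM in Arg24h, and 379, 440, and 404 CPM in Con48h against 483, 489, and 498 CPM in Arg48h. All Arg libraries were above the controls of their time. It rose by 0.39 (standard error 0.058, adjusted p = 0.000457). PTBP2, a splicing repressor best known in neurons, rose by 0.59 (adjusted p = 0.00089). HNRNPU rose by 0.20 (adjusted p = 0.0121), and HNRNPA2B1, which overlaps CBX3 on the opposite strand, by 0.19 (adjusted p = 0.0244). Of 14 SR splicing factors, 2 rose (14.3%, SRSF5 and TRA2B) and 0 fell.

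The lists of growth factor signaling held more genes that fell than rose. Of the 22 tested AP-1 and immediate early genes, 10 fell (45.5%) and 0 rose, with a median of −0.30. Of the 13 tested MAP kinase phosphatase and Sprouty genes, 8 fell (61.5%) and 1, DUSP16, rose (7.69%), with a median of −0.46. Of the 9 tested genes of the EGF receptor family and its ligands, the ligands EREG, HBEGF, and AREG fell (33.3%) and the receptor gene ERBB2 rose (11.1%). Beside the shares of these lists, 6.03% of all tested genes fell and 4.73% rose. All 3 lists had medians closer to 0 at 48 h than at 24 h. The part of cell detachment before RNA extraction in these lists was not tested.

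FOS, which encodes an AP-1 subunit that is made within minutes of a growth stimulus, had 196, 126, and 163 CPM in Con24h and 37.4, 36.1, and 43.5 CPM in Arg24h. At 48 h it had 135, 131, and 133 CPM in the control and 79.5, 63.0, and 65.4 CPM with Arg. The arms were far apart at both times, and Con48h B did not stand apart from the other controls. FOS (ENSG00000170345, chromosome 14, 75278774 to 75282230) fell by 1.49 on the log2 scale (standard error 0.15, adjusted p = 1.11e-05), with −2.05 at 24 h and −0.94 at 48 h. FOSB (1344 counts), which overlaps ERCC1 (5783 counts) on the opposite strand, fell by 1.30 (adjusted p = 0.00414), IER3 by 0.69 (adjusted p = 0.000725), NR4A1 by 0.74 (adjusted p = 0.00451), and JUND by 0.38 (adjusted p = 0.00414). ATF3, a stress-induced factor, had −1.39 at 24 h and −0.03 at 48 h, with −0.71 over both (adjusted p = 0.0289). EGR1 (−0.30, adjusted p = 0.15) and MYC (−0.19, adjusted p = 0.109) did not pass. RHOB, a small GTPase gene that is also induced at once by growth factors and stress, had the smallest p of all genes. It had 134, 113, and 129 CPM in Con24h against 74.5, 72.2, and 87.4 CPM in Arg24h, and 121, 112, and 111 CPM in Con48h against 76.0, 76.4, and 61.2 CPM in Arg48h. The drop was about equal at both times (−0.68 and −0.69), with −0.68 over both (standard error 0.067, adjusted p = 1.11e-05).

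DUSP1, which inactivates MAP kinases in the nucleus, had 332, 250, and 346 CPM in Con24h and 109, 108, and 119 CPM in Arg24h, followed by 287, 164, and 289 CPM in Con48h and 138, 122, and 125 CPM in Arg48h. All Arg libraries were below all controls, and Con48h B was the lowest control. It fell by 1.21 on the log2 scale (standard error 0.12, adjusted p = 1.11e-05). DUSP10 fell by 1.27 (adjusted p = 0.000402), DUSP4 by 1.02 (adjusted p = 0.00197), and DUSP6, which acts on ERK, by 0.61 (adjusted p = 0.00344). SPRY4 fell by 0.74 (adjusted p = 0.00866) and SPRY2 by 0.55 (adjusted p = 0.0308), whereas DUSP16, which acts on JNK and p38, rose by 0.39 (adjusted p = 0.0255). The EGF receptor ligand AREG had 231, 115, and 306 CPM in Con24h against 134, 132, and 100 CPM in Arg24h, and 92.9, 57.1, and 104 CPM in Con48h against 57.2, 60.2, and 58.0 CPM in Arg48h. Both B controls lay within or below the range of the Arg libraries of their time. AREG fell by 0.69 (standard error 0.16, adjusted p = 0.0115), EREG by 0.65 (adjusted p = 0.00827), and HBEGF by 0.93 (adjusted p = 0.00993). EGFR (0.20, adjusted p = 0.0628) and TGFA (−0.23, adjusted p = 0.0768) did not pass, and TGF-α was in the medium of all groups.

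**Figure D4:**
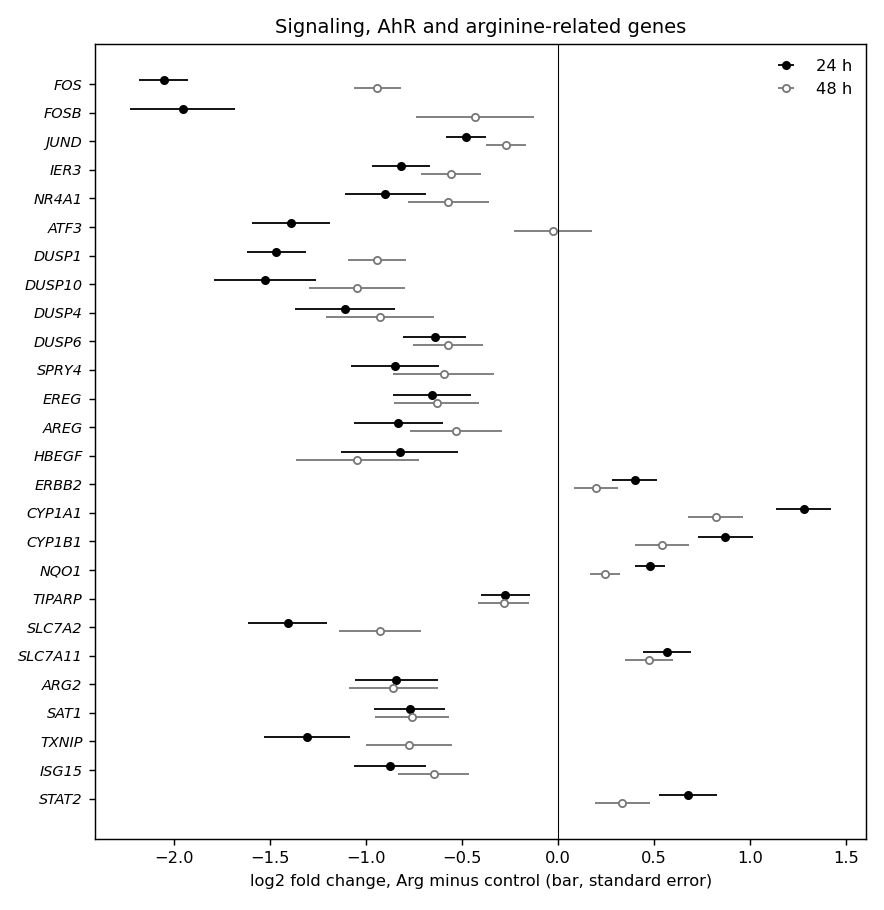
Log2 fold change (Arg minus control) with its standard error at 24 h (filled) and 48 h (open) for 26 called genes of signaling, the AhR pathway, and arginine use. All the AP-1, DUSP, Sprouty, and EGF ligand genes shown lie left of 0 at both times, ATF3 reaches 0 at 48 h, and the bars of the times overlap for EREG, ARG2, and SAT1 but not for FOS.

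The plot of the signaling genes places these changes side by side. FOS was closer to 0 at 48 h than at 24 h, and its difference passed the interaction test. FOSB and ATF3 were also closer to 0 at 48 h, but theirs did not pass (interaction adjusted p = 0.352 and 0.168). The standard error bars of both times overlapped for DUSP4, DUSP6, EREG, ARG2, and SAT1. The promoters of DUSP1, JUND, and AREG are shown because these genes fell and because their windows hold the cAMP response element TGACGTCA, which is bound by CREB and ATF factors. The sequences are the bases before the RefSeq start (GRCh38.p14) that lie outside the gene in the deposited table, 5′ to 3′ on the gene's strand, with the element in capitals. They were chosen after the values were seen.
DUSP1, chr5:172771196-172771445, minus strand: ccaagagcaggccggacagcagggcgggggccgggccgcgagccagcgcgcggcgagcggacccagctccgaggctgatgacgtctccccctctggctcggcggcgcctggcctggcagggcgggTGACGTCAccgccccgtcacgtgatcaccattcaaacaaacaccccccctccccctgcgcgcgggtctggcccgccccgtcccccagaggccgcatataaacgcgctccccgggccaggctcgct
JUND, chr19:18281623-18281872, minus strand: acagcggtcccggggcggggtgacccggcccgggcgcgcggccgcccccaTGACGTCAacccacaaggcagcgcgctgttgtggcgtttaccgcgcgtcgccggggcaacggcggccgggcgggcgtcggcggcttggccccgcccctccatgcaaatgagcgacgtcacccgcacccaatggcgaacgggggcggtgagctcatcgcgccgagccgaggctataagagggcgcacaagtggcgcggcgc
AREG, chr4:74444886-74445133, plus strand: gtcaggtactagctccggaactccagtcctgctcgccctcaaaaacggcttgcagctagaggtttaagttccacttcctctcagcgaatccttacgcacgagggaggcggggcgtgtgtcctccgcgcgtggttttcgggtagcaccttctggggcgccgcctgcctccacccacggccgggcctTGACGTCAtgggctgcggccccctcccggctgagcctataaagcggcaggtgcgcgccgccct
The element begins 125, 200, and 65 bases before the start in DUSP1, JUND, and AREG. It reads the same on both strands, does not overlap the AP-1 motif TGANTCA in these windows, and is present in 482 of the 27305 RefSeq promoters of 250 bases (1.77%). Of the 169 named genes, 130 had their RefSeq promoter scanned, and 7 of these held the element. Of these 7, besides the 3 shown, ARG2 and LDHA fell, and PURB and NDC80 rose. The other named genes were not scanned, so further named genes may hold the element. RefSeq promoters matched 1244 of the 1630 called genes (76.3%), under the 80% set as the least for a share, so no share over the called genes is given.

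Genes that handle Arg changed in both directions. SLC7A2, a cationic amino acid transporter that carries Arg, had 75.0, 51.5, and 84.5 CPM in Con24h against 28.9, 27.0, and 23.5 CPM in Arg24h, and 42.1, 19.8, and 42.0 CPM in Con48h against 18.7, 16.0, and 19.9 CPM in Arg48h. Con48h B lay at the top of the Arg48h range. SLC7A2 fell by 1.18 on the log2 scale (standard error 0.15, adjusted p = 0.000148). SLC7A1, the main Arg carrier of most cells, had a log2 fold change of 0.19 (adjusted p = 0.0934). ARG2, the mitochondrial arginase, had 24.2, 18.4, and 19.9 CPM in Con24h against 13.99, 10.1, and 10.7 CPM in Arg24h, and 12.2, 6.17, and 13.4 CPM in Con48h against 6.41, 4.47, and 6.56 CPM in Arg48h. Again Con48h B was inside the Arg range. ARG2 fell by 0.85 (standard error 0.15, adjusted p = 0.00197), with overlap by VTI1B (12078 counts, against 2652 for ARG2) on the opposite strand.

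Of the 20 tested arginine and proline enzymes, 4 fell (20%) and 1 rose (5%), beside 6.03% and 4.73% of all tested genes, with a median of −0.08. Besides ARG2, the ornithine aminotransferase OAT fell by 0.32 (adjusted p = 0.00414), and the creatine synthesis enzymes GATM by 0.30 (adjusted p = 0.0193) and GAMT by 0.44 (adjusted p = 0.0193). PYCR1, which makes proline, rose by 0.22 (adjusted p = 0.0256). ASS1, an enzyme that remakes Arg from citrulline, did not pass (0.19, adjusted p = 0.0958), and ARG1 had 0 counts in all libraries. In the polyamine list of 11, SAT1, which acetylates polyamines for export, fell by 0.77 (adjusted p = 0.00113) and OAZ1 by 0.14 (adjusted p = 0.0421), AZIN1 rose by 0.18 (adjusted p = 0.036), and OAZ3 was called higher on 133 counts, with MRPL9 on the opposite strand. ODC1, the first enzyme of polyamine synthesis, did not pass (−0.07, adjusted p = 0.599). None of the 8 tested protein arginine methyltransferases was called.

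Among 16 tested amino acid transporters, 4 fell (25%) and 1 rose (6.25%), beside 6.03% and 4.73% of all tested genes. SLC7A11, the cystine carrier, rose by 0.52 (adjusted p = 0.00113), while SLC38A2 fell by 0.24 (adjusted p = 0.00388), SLC36A4 by 0.46 (adjusted p = 0.00779), and SLC7A8 by 0.21 (adjusted p = 0.0336). The ATF4 targets, induced when amino acids are short, showed 3 that rose (12%) and 2 that fell (8%) among 25. SLC7A11 is also a member of this list and is among those that rose. ATF5, which NUP62 overlaps on the opposite strand, rose by 0.37 (adjusted p = 0.00123) and STC2 by 0.43 (adjusted p = 0.00245), DDIT4, an mTORC1 inhibitor, fell by 0.41 (adjusted p = 0.014), and ASNS (0.16, adjusted p = 0.768), CHAC1 (0.26, adjusted p = 0.211), and TRIB3 (0.06, adjusted p = 0.607) did not pass.

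Cytosolic ribosomal proteins and respiratory chain subunits held many genes that fell by small amounts. Of 86 tested cytosolic ribosomal protein genes, 53 fell (61.6%) and 1, RPL17, rose, with a median of −0.18, which was −0.16 at 24 h and −0.18 at 48 h. Those that fell did so by 0.14 to 0.72 on the log2 scale. RPS15A had 203, 172, and 219 CPM in Con24h against 182, 95.2, and 107 CPM in Arg24h, and 165, 152, and 159 CPM in Con48h against 89.2, 89.9, and 90.6 CPM in Arg48h. Arg24h A lay among the controls of 24 h, and the arms were apart at 48 h. RPS15A fell by 0.72 (standard error 0.11, adjusted p = 0.000451), RPL37A by 0.43 (adjusted p = 0.000486), and RPS27 by 0.41 (adjusted p = 0.000486). Ribosomal protein genes have many processed pseudogenes of like sequence, so their counts are uncertain to that extent. Of 81 tested nuclear-encoded subunits of the respiratory chain, 27 fell (33.3%) and 2 rose, with a median of −0.13. CYC1, of complex III, fell by 0.30 (adjusted p = 0.00414), and ATP5PO, of ATP synthase and with LINC00649 on the opposite strand, by 0.48 (adjusted p = 0.000312). Of 78 mitochondrial ribosomal proteins, 5 fell and 1 rose, a share of 6.41% that is near the 6.03% of all genes.

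The 13 mitochondrially encoded protein genes gave 0 calls, with a median of −0.71 at 24 h and 0.28 at 48 h, and Con48h A and C had the lowest medians of the 48 h libraries. Of 21 tested host genes of small nucleolar RNAs, 4 fell (19%, beside 6.03% of all tested genes), among them GAS5 (−0.44, adjusted p = 0.00404) and SNHG5 (−0.45, adjusted p = 0.00617).

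**Figure D5:**
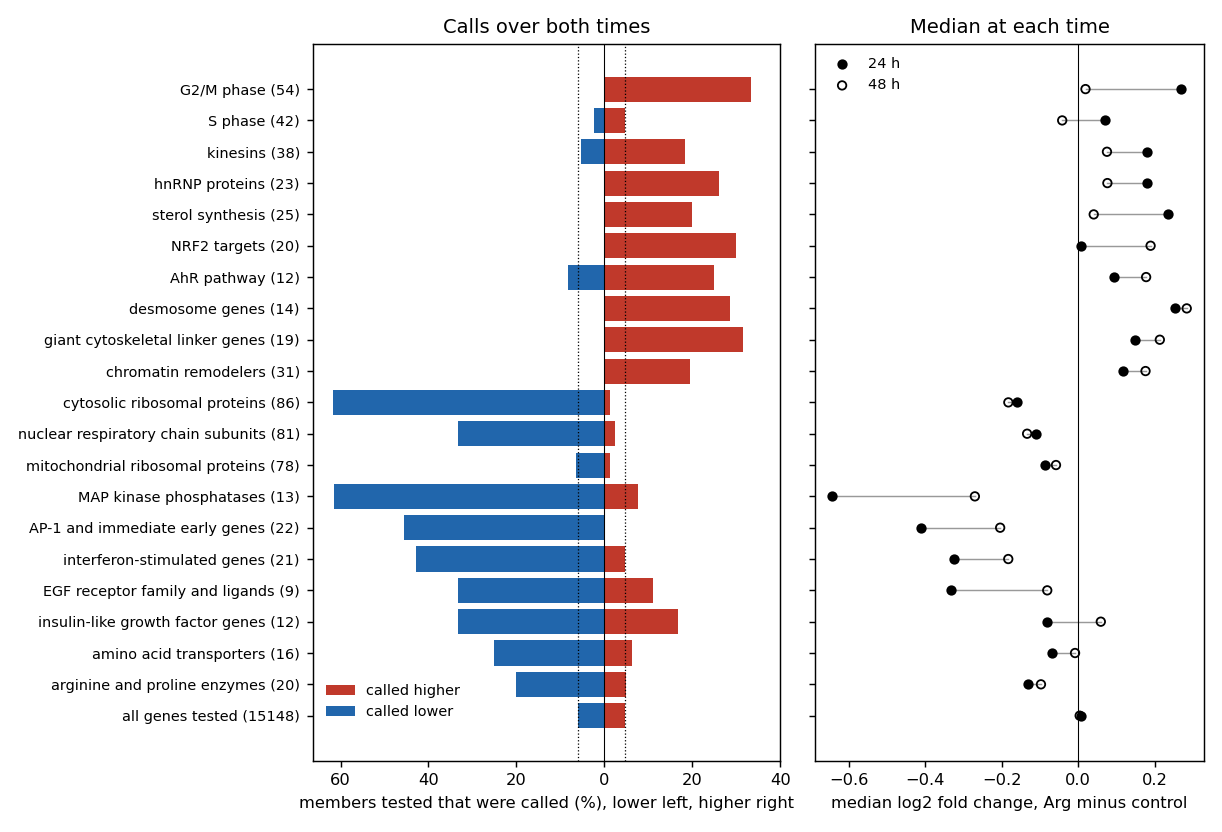
Left, the percentage of tested members of each gene list that were called higher (red, right) or lower (blue, left) over both times, with the number tested in brackets and dotted lines at the shares of all genes (4.73% and 6.03%). Right, the median log2 fold change of the list at 24 h (filled) and 48 h (open); the G2/M and sterol lists lie near 0 at 48 h, whereas the ribosomal, respiratory, and desmosome lists keep their medians.

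The plot of gene lists shows the ribosomal proteins and MAP kinase phosphatases with the largest shares called lower, and the G2/M phase genes with the largest share called higher of the lists drawn. Called genes also differed in length. The median exonic length was 5985 bases for genes that rose and 3919.5 bases for genes that fell, beside 4686 for all tested genes. With the genes divided by length into 5 bins of about equal number, from the shortest to the longest bin the share that rose went from 1.85% to 7.03% and the share that fell from 7.72% to 3.70%. With a correction for length, 660 genes rose and 984 fell, 1 ribosomal protein rose and 48 fell, 1 respiratory subunit rose and 25 fell, and 19 G2/M genes rose and 0 fell. The giant cytoskeletal linkers, whose median exonic length was 16236 bases, gave 6 higher and 0 lower as measured and 6 and 2 with the correction.

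Of 9 tested genes of hyaluronan and water transport, 2 fell (22.2%, AQP3 and HAS3) and 0 rose, beside 6.03% and 4.73% of all tested genes. AQP3, the water and glycerol channel of keratinocytes, had 257, 226, and 188 CPM in Con24h against 47.7, 47.8, and 57.4 CPM in Arg24h, and 190, 86.7, and 172 CPM in Con48h against 73.7, 65.8, and 67.9 CPM in Arg48h. The arms did not overlap, and Con48h B was the nearest control. It fell by 1.62 on the log2 scale (standard error 0.17, adjusted p = 1.57e-05). HAS3, a hyaluronan synthase, had 88.8, 68.1, and 85.2 CPM in Con24h against 23.4, 22.5, and 26.1 CPM in Arg24h, but 39.0, 16.2, and 32.9 CPM in Con48h against 15.8, 16.7, and 16.1 CPM in Arg48h, so Con48h B was within the Arg range. It fell by 1.33 (adjusted p = 0.000143), and CHTF8 overlaps it on the opposite strand with 33770 counts, against 8138 for HAS3. OSBP2, which binds oxysterols, had 44.4, 28.4, and 43.2 CPM in Con24h against 4.83, 6.99, and 5.70 CPM in Arg24h, and 18.9, 4.36, and 19.1 CPM in Con48h against 5.06, 5.36, and 4.61 CPM in Arg48h. Con48h B was the lowest of all 48 h libraries, and OSBP2 fell by 2.15 (adjusted p = 0.000143).

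The secreted matrix protein SMOC1 had the largest change of the named genes. It had 9.75, 4.46, and 8.40 CPM in Con24h against 1.18, 0.582, and 0.215 CPM in Arg24h, and 4.04, 0.778, and 3.75 CPM in Con48h against 0.156, 0.238, and 0.23 CPM in Arg48h. At these low levels (612 counts in all), the Arg libraries were below the controls of their time. SMOC1 fell by 3.59 on the log2 scale (standard error 0.39, adjusted p = 2.23e-05), and the pseudogene RPL7AP6 overlaps it on the opposite strand with 2218 counts. The collagenase MMP1 fell by 2.58 (adjusted p = 0.000145), the protease inhibitor TFPI2 fell by 2.003 (adjusted p = 0.000175), and SFRP1, a secreted inhibitor of WNT, by 0.91 (adjusted p = 6.70e-05). MAOA, the monoamine oxidase, fell by 0.62 (adjusted p = 0.000143), and NPTX1 fell by 1.499 (adjusted p = 8.77e-05). The inducible heat shock gene HSPA6 fell by 2.91 (adjusted p = 0.000581), with 0.778 CPM in Con48h B against 11.2 and 17.5 CPM in Con48h A and C. Of 18 other heat shock genes, HSPE1 and HSPA5 fell and HSP90AB1 rose.

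Among inflammatory and stress genes, 9 of 21 tested interferon-stimulated genes fell (42.9%) and 1 rose (4.76%), beside 6.03% and 4.73% of all tested genes. The median of the interferon list was −0.28. ISG15 fell by 0.76 (adjusted p = 0.00121), the interferon regulator IRF7 by 0.62 (adjusted p = 0.00385), and ISG20 by 1.13 (adjusted p = 0.00737), whereas STAT2 rose by 0.50 (adjusted p = 0.0067). PTGES, which makes prostaglandin E2, fell by 0.85 (adjusted p = 0.00018), and it and IL18 were the called members of 12 inflammatory mediators. Of 4 tested metallothioneins, which bind zinc and copper, MT2A fell by 1.04 (adjusted p = 0.00163) and MT1E by 0.70 (adjusted p = 0.00848). MT2A had 1442 and 1439 CPM in Con48h A and C, 428 CPM in Con48h B, and 425 to 542 CPM in Arg48h. TXNIP, a glucose-induced inhibitor of glucose uptake, had 111, 116, and 145 CPM in Con24h against 50.9, 46.9, and 52.6 CPM in Arg24h, and 98.3, 36.4, and 96.0 CPM in Con48h against 45.2, 49.0, and 40.2 CPM in Arg48h. Con48h B was the lowest 48 h library. TXNIP fell by 1.05 (standard error 0.16, adjusted p = 0.000671) with all libraries and by 1.22 without Con48h B.

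Of 23 glycolysis genes, 4 fell (17.4%) and 1 rose (4.35%), beside 6.03% and 4.73% of all tested genes. LDHB, a lactate dehydrogenase, had 78.0, 64.6, and 78.9 CPM in Con24h against 69.0, 36.4, and 34.3 CPM in Arg24h, and 83.9, 57.3, and 81.1 CPM in Con48h against 24.7, 25.2, and 23.6 CPM in Arg48h. Arg24h A lay within the control range, as it did for RPS15A, and all Arg48h libraries were far below the controls. It fell by 1.12 (adjusted p = 0.000451), by 0.66 at 24 h and 1.60 at 48 h. LDHA fell by 0.32 (adjusted p = 0.00121), the lactate exporter SLC16A3 by 0.75 (adjusted p = 0.00131), and PGK1 by 0.16 (adjusted p = 0.0357), while PFKL rose by 0.22 (adjusted p = 0.0313). SLC16A3 overlaps CSNK1D on the opposite strand (29240 counts, against 12829).

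Several lists of cell structure, lipid synthesis, and redox defense held genes that rose and none that fell, although most members did not pass. Of 14 tested desmosome genes, which hold keratinocytes together, 4 rose (28.6%) and 0 fell, beside 4.73% and 6.03% of all tested genes. The desmosome median was 0.28, with 0.25 at 24 h and 0.28 at 48 h. PPL had 125, 171, and 112 CPM in Con24h against 158, 233, and 204 CPM in Arg24h, and 268, 327, and 259 CPM in Con48h against 326, 356, and 399 CPM in Arg48h. Control B was the highest control at both times and was above Arg A, so the arms overlapped. It rose by 0.44 (adjusted p = 0.00774) and PKP1 by 0.43 (adjusted p = 0.0208). Without Con48h B, 10 desmosome genes rose, where 8.76% of all genes did. Of 19 giant linker genes, 6 rose, among them the filament-binding MYH9 (0.40, adjusted p = 0.00107) and UTRN (0.48, adjusted p = 0.00349), and the actin crosslinker FLNA rose by 0.35 (adjusted p = 0.00104). Of 31 chromatin remodelers, 6 rose and 0 fell, and 13 rose without Con48h B, with SETD5 (0.39, adjusted p = 0.00121) and ARID1A (0.27, adjusted p = 0.0099) as examples. Differentiation genes gave 0 that rose and 1 that fell among 31, and 8 and 2 without Con48h B, where 8.76% of all genes rose and 9.69% fell.

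Of 25 sterol synthesis genes, 5 rose and 0 fell (10 and 0 without Con48h B). HMGCS1, an early enzyme of the pathway, had 183, 224, and 183 CPM in Con24h against 362, 340, and 299 CPM in Arg24h, and 326, 396, and 326 CPM in Con48h against 435, 421, and 382 CPM in Arg48h. The arms were apart at 24 h and overlapped at 48 h. It rose by 0.50 (standard error 0.087, adjusted p = 0.00143), by 0.76 at 24 h and 0.24 at 48 h. FDPS rose by 0.35 (adjusted p = 0.00782) and the desaturase SCD by 0.36 (adjusted p = 0.0139). Of 20 NRF2 targets, 6 rose (30%) and 0 fell, beside 4.73% and 6.03% of all tested genes. NQO1 and SLC7A11, given above with other lists, are among the 6. The list median was only 0.04. In all, 13 of the 20 log2 fold changes were positive, and 12 had the same sign at both times. GCLC, the catalytic subunit of the first glutathione enzyme, had 83.0, 99.5, and 89.8 CPM in Con24h against 149, 124, and 135 CPM in Arg24h, and 106, 206, and 104 CPM in Con48h against 210, 216, and 207 CPM in Arg48h. Con48h B lay just below the Arg libraries. GCLC rose by 0.59 (adjusted p = 0.00372), OSGIN1 by 0.35 (adjusted p = 0.00862), and SRXN1 by 0.36 (adjusted p = 0.0384), but NFE2L2, the NRF2 gene, did not pass (0.01, adjusted p = 0.953).

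Other genes with a small p among those that rose were TRNP1, a nuclear regulator of progenitor division (0.53, adjusted p = 0.000402), the scavenger receptor SCARA3 (0.59, adjusted p = 0.000312), TRIM16L (0.53, adjusted p = 0.000446), and NBPF26 (0.77, adjusted p = 0.000236), a member of a family of near-identical copies. TNNT2 (0.99, adjusted p = 0.000935; 1681 counts) overlaps LAD1 (60300 counts) on the same strand, so its reads are uncertain. The insulin-like growth factor list gave 4 that fell (33.3%) and 2 that rose (16.7%) among 12, beside 6.03% and 4.73% of all tested genes. IGFBP4 (−0.43, adjusted p = 0.00287), IGFBP7 (−0.45, adjusted p = 0.00404), and IGFBP6 (−0.39, adjusted p = 0.00728), which bind the factors, were lower. IGFBP7 is overlapped by POLR2B on the opposite strand. The clock genes gave 2 each (11.8%) among 17, with ARNTL lower (−0.35, adjusted p = 0.00906) and CRY2 higher (0.35, adjusted p = 0.00938). The YAP list, which held pathway members such as TEAD4 and WWTR1 beside targets, gave 3 that rose (25%) and 1 that fell (8.33%) among 12. Its median was −0.05, and 3 of the 12 log2 fold changes were positive.

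For some genes the change seen at 24 h was near 0 at 48 h, but their difference between the times did not pass an adjusted p of 0.05. Of the genes called at 24 h, 128 that rose and 111 that fell were not called over both times. ANKRD50 had 59.8, 59.4, and 62.2 CPM in Con24h against 40.7, 38.7, and 44.7 CPM in Arg24h, and 57.2, 58.3, and 55.3 CPM in Con48h against 58.5, 59.8, and 55.5 CPM in Arg48h. Its log2 fold change was −0.55 at 24 h and 0.02 at 48 h (interaction adjusted p = 0.135). KLF4, a differentiation factor, had −0.45 and 0.01 (interaction adjusted p = 0.331), and ELOVL6, a fatty acid elongase, had 0.54 and −0.03 (interaction adjusted p = 0.287). NDC80, a kinetochore gene, and OXCT1, an enzyme of ketone use, met the rule (adjusted p = 0.0251 and 0.0248) with 0.55 and 0.52 at 24 h but 0.01 each at 48 h, and the interaction adjusted p was 0.135 for each of NDC80 and OXCT1.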

How the data were processed

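The deposited table held counts of reads per gene for 12 libraries. Per the labels and the study's methods, the authors used fastp to filter the reads, STAR to align them (human build GRCh38, also named hg38), and featureCounts for the gene counts. Versions, annotation release, and strand setting are not given in the sources used here, so reads of overlapping genes on opposite strands may not be told apart. The members and gene lists were chosen with earlier results of these data known.

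Counts were tested with edgeR 4.0.16 in R 4.3.3 (quasi-likelihood F test, TMM normalization, filterByExpr over the 4 groups), with time and Arg as additive terms. Effects at each time and their difference came from a fit of the 4 groups. All p-values were adjusted by Benjamini and Hochberg over all tested genes, and standard errors were the log2 fold change divided by the root of F. The procedure was checked on simulated counts. Gene lists were described by counts and medians only. The lists share members, such as NQO1, SLC7A11, KIF23, and CENPF, so they are not separate evidence. G2/M and S phase genes were taken from Seurat 5.3.0. Named genes were CYP1A1, SKP2, and SRSF5, the 12 genes of smallest p in each direction, the 6 of largest change in each direction with a mean of at least 10 CPM, up to 5 called members per list and those that went against their list, up to 5 genes whose sign differed between times, the 5 of smallest interaction p, and any tested member of a small list described gene by gene. Alternatives were DESeq2 1.42.0 and its size factors, library size alone, no filter or at least 10 counts in every library, a replicate block, a correction for exonic length, removal of mitochondrially encoded genes, no time term, other call rules, and leaving out libraries. The letters A, B, and C were not stated to mark a shared plate or day. Deviations of same-letter control and Arg libraries of the same time from their group means correlated between −0.06 and 0.04. The letters were therefore not taken to pair the libraries. Such correlations were not taken across times, where both B controls lay nearer to the Arg arm than controls A and C over the called genes. Replicates of a group differed by more than counting error, and none was counted as a duplicate.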

Additional observations from a re-analysis of the deposited data

Results flagged for a closer look

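The effect of Arg differed between the times in 2 genes at an adjusted p under 0.05, in edgeR's interaction test. The log2 fold change of FOS was 1.11 higher at 48 h than at 24 h (−2.05 at 24 h and −0.94 at 48 h, interaction adjusted p = 0.0229), and all Arg libraries were below all controls at both times.

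The other gene was MT-RNR1, the mitochondrial 12S ribosomal RNA, with a difference of 0.83 (−0.996 at 24 h and −0.17 at 48 h, interaction adjusted p = 0.0229). It had 466, 446, and 469 CPM in Con24h against 262, 222, and 209 CPM in Arg24h, and 249, 232, and 195 CPM in Con48h against 192, 202, and 208 CPM in Arg48h. The arms overlapped at 48 h. The share of counts from the mitochondrial genome was 1.197% to 1.30% in Con24h, 0.624% to 0.802% in Arg24h, 0.707% to 1.55% in Con48h, and 1.14% to 1.31% in Arg48h. The part of this share in the result was not tested.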

How the results depend on the processing

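Of the 163 called genes picked by the naming rule above, none changed sign under any alternative. Between 29 (no time term) and 163 (without Con48h B) of them remained called. That rule picked mainly genes with a small p or a large change in these same libraries, so a kept sign was favored by selection. Called genes outside that rule were not part of this count. The counts of 716 and 914 stayed within 1.5 times under other normalizations, filters, DESeq2, the length correction, and removal of mitochondrial genes. Without the time term, 22 genes rose and 89 fell, and SRSF5 (0.31, adjusted p = 0.276) was not called. With an unadjusted p under 0.05 at both times as the rule, 336 and 545 were called, and with no overlap of libraries at either time, 251 and 316. The 41 calls at 48 h became 187 with DESeq2, 433 with no filter, 132 with a replicate block by letter, 135 with a replicate block of 6 pairs within time, and 73 with length correction and block. The 2 genes of the interaction became 15 with DESeq2, 88 with no filter, 16 with 6 pairs, and 1 without mitochondrial genes. The replicate block gave 785 higher and 923 lower over both times and changed no call of CYP1A1, SKP2, or SRSF5. With 1 library or 1 letter left out, between 21 and 1359 genes rose, between 70 and 1503 fell, 87 to 1644 were called at 24 h, 2 to 1166 at 48 h, and 0 to 68 in the interaction. The lowest counts over both times came without the 4 libraries of letter C, and the highest without Con48h B. SRSF5 ranged from 0.28 to 0.37 and was not called without letter A (0.29, adjusted p = 0.0676) or letter C (0.35, adjusted p = 0.0628). The causes were not tested. With 3 libraries a group, and 1 control library of 48 h near the Arg arm, small effects at 48 h may have been missed.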

Other observations

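Some gene groups and single genes stood outside the comparisons above. IRS1, an adaptor of the insulin receptor, fell while IRS2 and IGF2 (ENSG00000167244; 0.72, adjusted p = 0.0201) rose. In the YAP list, AMOTL2, AJUBA, and TEAD4 rose and WWTR1, which encodes TAZ, fell. PER3 rose and NFIL3 fell among the clock genes. The fatty acid enzymes ACACA and SCD rose, 2 of 11 tested. In the basal keratinocyte list of 14, KRT14 rose by 0.25 (adjusted p = 0.0165) and ITGA6, an integrin of the hemidesmosome, fell.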
